A study of Mus musculus with 141 samples.

Results

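The transcripts described here encode the machinery that copies DNA in S phase: 43 genes named by symbol for their role in replication, of 46517 genes in the expression table. All 43 were in the table, and all 43 passed the filter on low values in both sets of libraries, so no member was left out. RNA was sequenced from mouse naive CD4 T cells, helper T cells before their first contact with antigen. The donor mice were C57BL/6, an inbred strain, and the cells were sort-purified as CD4+CD25-CD44lo from their lymph nodes and spleen and then stimulated with plate-bound antibodies to CD3 and CD28. The age and sex of the mice are not given in the labels. Cells of replicates 1, 2 and 3 were cultured without polarizing cytokines or with IL6 and TGFb, the cytokines that together initiate Th17 differentiation. Cells of replicates 4, 5 and 6 received IL6 and TGFb with IL1b, with IL21, or with both, called here the IL1b, IL21 and IL1b+IL21 cocktails. Each set of replicates had its own unstimulated 0 h group, and every culture was sampled at 9 times, early at 0.5, 1, 2, 4 and 6 h and late at 12, 24, 48 and 72 h. The 141 libraries formed 47 groups of 3. The labels call the libraries of a group biological replicates, without stating whether any share a mouse or a culture, so p-values measure the spread between these samples.

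Replication starts at origins. The origin recognition complex (ORC) marks them, and Cdc6 and Cdt1 load the ring of Mcm2 to Mcm7, the helicase that unwinds DNA, a step called licensing that geminin (Gmnn) blocks. In S phase Cdc45 and the GINS complex join the ring, polymerase alpha with primase starts each strand, and polymerases delta and epsilon extend it on the sliding clamp Pcna, which the Rfc complex loads. Rpa coats single-stranded DNA, and Fen1, Dna2 and Lig1 trim and join the Okazaki fragments of the lagging strand. Resting T cells do not replicate, and a stimulated naive cell grows for many hours before it enters its first S phase.

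Counted reads per library ran from 15952020 to 47068754, with a median of 25403424, and 1 read was worth 0.0212 to 0.0627 CPM, the usual unit for counts scaled to the reads of a library. Levels below are CPM after TMM scaling, a correction for RNA composition. Log2 fold changes are differences of log2(CPM + 0.5), and they understate the change of low genes. Each comes with the SE that limma gives (3 libraries per group). That SE rests on a spread per gene shared by all groups of a set, not on the groups compared alone. Plain folds are ratios of mean levels. A gene was called at a Benjamini-Hochberg adjusted p under 0.05 over all genes tested, 14695 in replicates 1 to 3 and 14859 in replicates 4 to 6. Summed markers of T cells were 3921 to 4142 CPM at 0 h of replicates 1 to 3, against 10.7 to 16.6 for B cells, 28.3 to 32.7 for myeloid cells and 16.8 to 24.0 for CD8 T cells. The sums for NK and gamma-delta T cells were 19.8 to 21.6, and those for erythroid cells and platelets 24.1 to 47.2. In this bulk RNA, fewer cells of a type and less RNA per cell cannot be told apart. The libraries without cytokines stood apart from each other late in the culture. At 72 h replicate 1 was the lowest of the 3 in 36 of the 43 members, and at 48 h replicate 2 was the highest of the 3 in 35. Without cytokines the summed level of the members had an SD of 985 CPM at 48 h and 1172 at 72 h, against 131 at 24 h. For such late groups the shared SE and its p can be too small. For groups with a smaller spread they can be too large.

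The start regions of 4 members are shown because their transcripts mark the steps described below: Orc1 and Cdc6 rose within 1 h, Mcm5 was the helicase subunit with the largest rise at 12 h and 24 h without cytokines (Mcm3 in the other 4 cultures at 24 h), and Mcm10 had the largest rise of all members at 24 h. Each line gives the 250 bases before the RefSeq start on GRCm38.p6, 5′ to 3′ on the gene's strand. They lie at chr4:108579204-108579453 (plus strand) for Orc1, chr11:98907901-98908150 (plus) for Cdc6, chr8:75109259-75109508 (plus) for Mcm5 and chr2:5012792-5013041 (minus) for Mcm10. Capitals mark matches to the words TTTGGCGC, TTTCCCGC, TTTGCCGC and TTTCGCGC on either strand, forms of the site that E2F factors are known to bind. E2F factors are the classical regulators of replication genes.
Orc1: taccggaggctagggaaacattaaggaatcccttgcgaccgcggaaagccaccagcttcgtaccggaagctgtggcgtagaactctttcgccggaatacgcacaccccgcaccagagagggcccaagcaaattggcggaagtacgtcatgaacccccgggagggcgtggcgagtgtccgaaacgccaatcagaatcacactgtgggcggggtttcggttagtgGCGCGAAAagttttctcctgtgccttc
Cdc6: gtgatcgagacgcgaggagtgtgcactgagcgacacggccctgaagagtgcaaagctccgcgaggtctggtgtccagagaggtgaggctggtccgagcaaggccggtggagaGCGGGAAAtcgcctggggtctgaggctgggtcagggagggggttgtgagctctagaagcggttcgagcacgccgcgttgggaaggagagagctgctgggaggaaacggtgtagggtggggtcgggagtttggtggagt
Mcm5: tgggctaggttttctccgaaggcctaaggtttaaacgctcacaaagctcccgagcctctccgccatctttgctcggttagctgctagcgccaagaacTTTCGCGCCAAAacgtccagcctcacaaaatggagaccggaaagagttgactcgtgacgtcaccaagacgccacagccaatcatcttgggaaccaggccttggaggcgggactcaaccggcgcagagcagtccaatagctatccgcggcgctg
Mcm10: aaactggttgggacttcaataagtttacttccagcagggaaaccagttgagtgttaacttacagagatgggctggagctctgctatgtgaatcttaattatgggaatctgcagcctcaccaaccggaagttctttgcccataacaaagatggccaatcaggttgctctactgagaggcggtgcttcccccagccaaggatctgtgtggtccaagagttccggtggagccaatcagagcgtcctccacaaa
Orc1 and Cdc6 held 1 match each, Mcm5 held 2 that overlap, and the Mcm10 stretch held 0. In windows of 300 bases, from 250 before to 50 after the start, 16 of the 35 members in the RefSeq table had a match in at least 1 window (45.7%), against 2.61% of all 27025 genes in it. These were Mcm3, Mcm5, Mcm6 and Mcm7 of 5 helicase subunits present, both Cdc6 and Cdt1, Pold1, Pold3 and Pole2, Orc1 and Orc3, and Gins3, Mcm8, Pola1, Rfc3 and Lig1, while 0 of the 3 Rpa genes had one. The general promoter word CCAAT was present in 62.9% of the 35, against 41.1% of all genes. Members with an E2F-type match had a median log2 fold change of 3.20 at 24 h without cytokines (range 0.75 to 5.90, 16 genes), and the 19 without had 2.24 (range 0.09 to 6.52). The ranges overlap nearly in full, and a match or its lack is only a statement about letters in this window. Gins1, Gins2, Gins4, Gmnn, Mcm4, Pole, Prim2 and Rfc2 were not matched in the table.

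The machinery moved in 3 stages: a short early stage in which members went in opposite directions, a joint rise between 6 h and 24 h, and a decline from 24 h to 72 h. Without cytokines the summed level of the 43 members was 1514 ± 28.4 CPM (SD, n = 3) at 0 h, 1616 ± 22.4 at 0.5 h, 1611 ± 52.5 at 1 h and 1347 ± 37.9 at 2 h. The order of these early sums was not tested without TMM scaling. At 1 h the median log2 change over all genes went from -0.008 to -0.18 without it. With TMM scaling the libraries at 0.5 h and 1 h lay above those at 0 h, and those at 2 h below. It was 3417 ± 215 at 12 h, 8851 ± 131 at 24 h, 6761 ± 985 at 48 h and 6067 ± 1172 at 72 h. The mean level was highest at 24 h for 38 of 43 members without cytokines, 39 with IL6 and TGFb, and 37, 36 and 33 with the IL1b, IL21 and IL1b+IL21 cocktails.

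**Figure D1:**
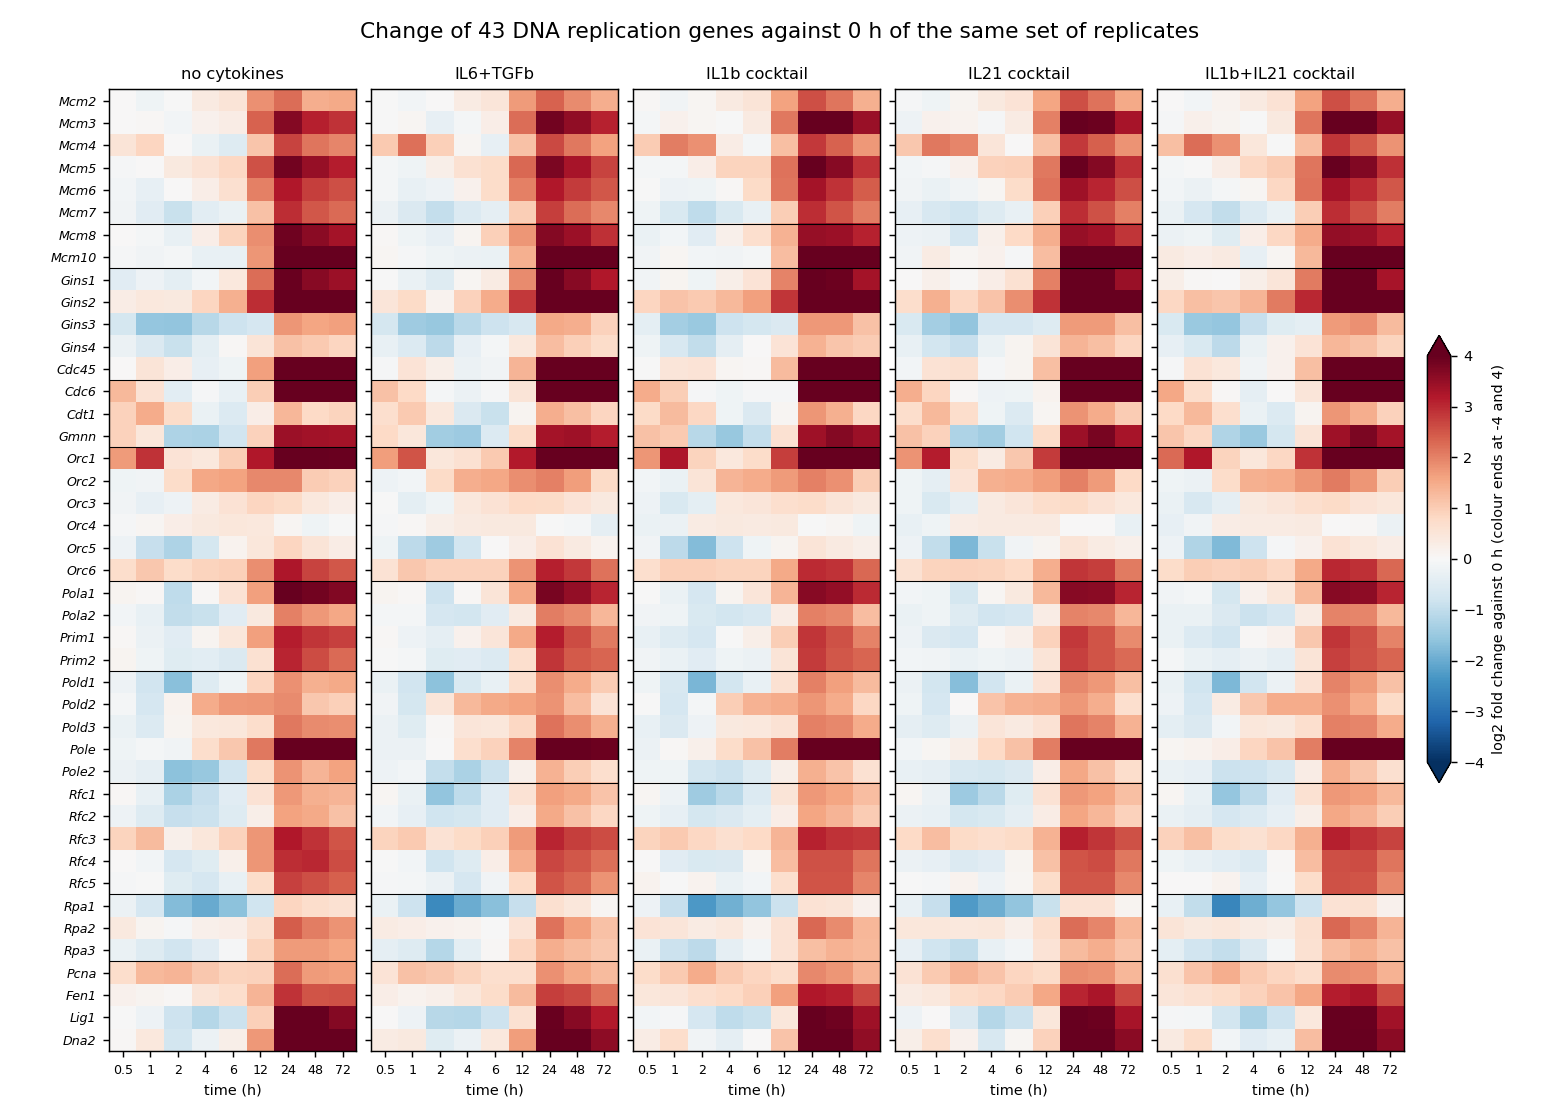
Log2 fold change of each member (rows, grouped by role with lines between groups) against the 0 h group of its own set, at 9 times (columns, h) in 5 culture conditions; red is higher, blue is lower, and the colour ends at -4 and 4. Blue cells cluster at 1 to 6 h, for example Rpa1, Gins3 and Pold1, and at 24 h 42 of 43 members were called higher in every culture, Orc4 being the exception.

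In the first hour after stimulation without cytokines, a few members rose quickly while others fell. At 0.5 h 9 members were higher than at 0 h and 3 lower, with 13.5% of all genes tested called higher and 9.58% lower (1656 and 2427 genes without TMM scaling). At 1 h 10 were higher and 14 lower, with a background of 28.5% and 28.8%, so the counts of members were close to those of genes at large. Without TMM scaling the 1 h counts were 6 higher and 20 lower, and all genes split 3088 higher to 5959 lower with a median log2 change of -0.18. Orc1, the largest ORC subunit, was at 0.844, 1.14 and 0.777 CPM at 0 h. It reached 8.68, 3.73 and 2.05 at 0.5 h and 11.4, 13.1 and 6.62 at 1 h, then was 1.70, 1.51 and 1.53 at 2 h. All 6 libraries at 0.5 h and 1 h lay above the 0 h libraries, and the replicates differed several-fold at 0.5 h. At 1 h the fold was 11.2 (log2 2.89 ± 0.27, limma adjusted p = 2.9e-12).

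All 3 genes grouped here as licensing factors, the loaders Cdc6 and Cdt1 and the inhibitor Gmnn, shared this early rise. Cdc6, the ATPase that loads the helicase, went from 1.45, 2.23 and 1.89 CPM to 6.42, 6.22 and 3.63 at 0.5 h (log2 1.31 ± 0.20). Cdt1, its partner in loading, went from 53.3, 56.3 and 51.0 to 161, 156 and 139 at 1 h (log2 1.50 ± 0.16, adjusted p = 8.6e-11 from limma). Its libraries at 1 h did not overlap those at 0 h, yet by 6 h they read 37.7, 36.3 and 36.3, below the start (log2 -0.53 ± 0.16). Gmnn, the inhibitor of Cdt1, went from 5.22, 4.76 and 5.51 to 10.5, 10.97 and 8.94 at 0.5 h and then to 2.28, 1.56 and 1.90 at 2 h (log2 -1.24 ± 0.19). The inhibitor and the factor it binds both rose first and fell later, Gmnn the sooner.

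The other early risers belong to different complexes. Pcna stood at 90.1, 89.3 and 113 CPM at 0 h and at 234, 234 and 276 at 2 h (log2 1.35 ± 0.11, limma adjusted p = 1.5e-14). Unlike Orc1 and Cdc6, it was called higher at every later time. Mcm4 went from 93.5, 104 and 108 to 194, 187 and 175 at 1 h (log2 0.86 ± 0.12) and down to 74.7, 66.1 and 71.8 at 6 h. It was the only one of the 6 helicase subunits called higher at 0.5 h or 1 h. Rfc3, a subunit of the clamp loader, was 7.68, 6.45 and 5.32 at 0 h and 16.5, 18.3 and 14.2 at 1 h (log2 1.27 ± 0.13). Orc6 was 9.73, 10.96 and 11.1 at 0 h and 21.6, 24.9 and 22.1 at 1 h (log2 1.07 ± 0.09). In each of these genes all 3 stimulated libraries were above all 3 at 0 h.

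By 2 h the balance had turned downward: 6 members were called higher and 21 lower, against 32.4% and 36.7% of all genes, and the median over members was -0.29 on the log2 scale (-0.04 over all genes). Without TMM scaling 28 members were lower, and all genes split 3704 higher to 6517 lower with a median of -0.22. Rpa1, the large DNA-binding subunit of Rpa and the highest member after Pcna per kb of exon at 0 h, went from 224, 221 and 207 CPM to 54.3, 53.3 and 51.1 at 4 h. The 0 h and 4 h libraries are far apart, and the change was log2 -2.03 ± 0.14 (limma adjusted p = 1.6e-17), a 4.11-fold drop. Pold1, the catalytic subunit of polymerase delta, went from 77.5, 77.9 and 74.3 to 23.1, 22.6 and 25.6 at 2 h (log2 -1.67 ± 0.13). Pole2, a polymerase epsilon subunit, went from 12.4, 12.5 and 13.6 to 3.89, 3.38 and 4.06 at the same time (log2 -1.64 ± 0.17). Gins3 had already gone from 7.80, 9.22 and 8.39 to 2.13, 2.48 and 3.13 at 1 h (log2 -1.55 ± 0.18). None of these groups overlapped.

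By role, all 4 polymerase alpha and primase genes, 4 of 5 Rfc genes, 3 of 5 GINS and Cdc45 genes and 2 of 3 Rpa genes were lower at 2 h, and 1 of 6 helicase genes was. Other members were well above their start by 4 h. Orc2 went from 31.1, 35.1 and 32.4 CPM at 0 h to 93.7, 96.5 and 99.1 at 4 h (log2 1.54 ± 0.15). Of its exon bases, 29.8% are shared with Nif3l1 on the opposite strand. Whether the counting used strand is not given, which limits every Orc2 result here. Pold2, an accessory subunit of polymerase delta, dipped from 43.2, 39.9 and 42.4 to 26.8, 28.8 and 22.7 at 1 h and stood at 121, 118 and 113 at 4 h (log2 1.48 ± 0.09). Subunits of 1 enzyme thus went opposite ways at 4 h, with Pold1 at log2 -0.51 ± 0.13 and Pold2 at 1.48. At 4 h 15 members were higher and 17 lower (34.8% and 38% of all genes), and at 6 h 21 were higher and 12 lower (35% and 37.4%). In total 27 of 43 members were called lower at some time up to 6 h without cytokines, against 55.3% of all genes, so the members' share was near the background. All 27 were called higher at 24 h, where 42 of 43 members were, and 13.9% of all genes were lower early and higher at 24 h.

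**Figure D2:**
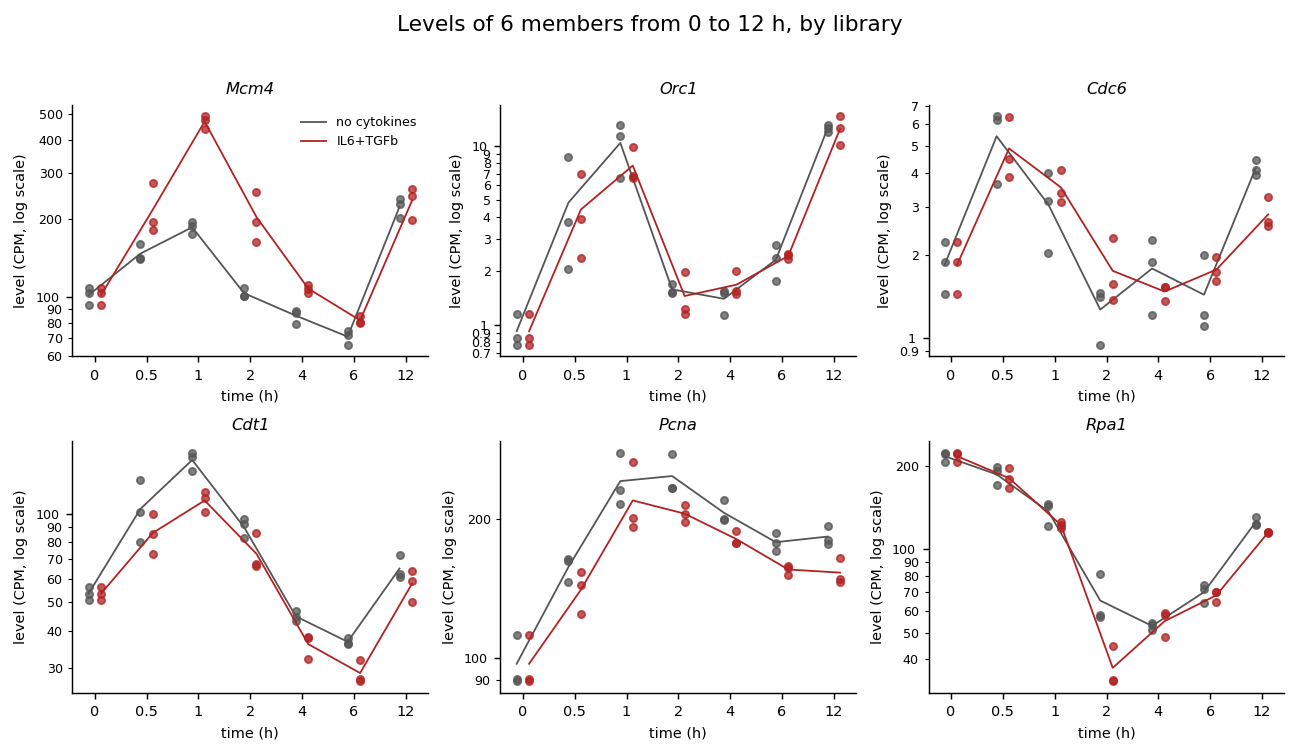
Level (CPM, log axis) of 6 members at 0 to 12 h (time axis not to scale) in cultures without cytokines (grey) and with IL6 and TGFb (red); points are the 3 libraries of a group, lines join means, and both cultures share the 0 h libraries. Orc1, Cdc6 and Cdt1 rise at 0.5 or 1 h and then drop back. Orc1 is up again at 12 h, with means of 12.5 CPM without cytokines and 12.4 with IL6 and TGFb. Pcna stays raised, Rpa1 falls to about 50 CPM at 4 h, and Mcm4 is at 441 to 493 CPM at 1 h with IL6 and TGFb.

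The joint rise was visible at 12 h. Without cytokines 40 of 43 members were higher than at 0 h and 2 lower, against 34.8% and 36.9% of all genes, and the median was 1.12 (all genes -0.06). Orc1 (log2 3.20) and Gins2 (2.95) had the largest changes. Mcm2 to Mcm7 were 1.12 to 2.53 higher on the log2 scale, with Mcm5 going from 47.4, 56.0 and 53.8 CPM to 302, 333 and 283. Mcm2 went from 89.4, 101 and 103 to 344, 374 and 321 (log2 1.82 ± 0.13). All libraries at 12 h were above those at 0 h for both. The exceptions were Gins3 (log2 -0.66 ± 0.18) and Rpa1 (-0.79 ± 0.14), still below their start, and Cdt1 (0.28 ± 0.16, adjusted p = 0.11), which was not called.

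At 24 h every member but Orc4 was higher than at 0 h: 42 higher and 0 lower without cytokines, with 35.9% of all genes called higher and 36.8% lower, and a median of 2.90. Mcm10, which helps fire the loaded helicase, showed the largest change, from 0.683, 1.93 and 1.04 CPM at 0 h to 154, 153 and 142 (123-fold, log2 6.52 ± 0.32, limma adjusted p = 9.3e-22). Cdc6 reached 142, 138 and 135 (log2 5.90 ± 0.20). Cdc45, which joins the helicase when it fires, went from 2.29, 3.67 and 3.22 to 129, 129 and 122 (log2 5.18 ± 0.14). Orc1 reached 46.8, 54.2 and 48.5 (log2 5.15 ± 0.27). These 4 genes act in loading or activating the helicase, and for each the 24 h libraries lay far above those at 0 h. Pole, the leading-strand polymerase, went from 7.80, 10.2 and 7.91 to 287, 276 and 273 (log2 4.94 ± 0.17). Dna2 went from 1.73, 2.05 and 2.33 to 74.8, 83.4 and 69.0 (log2 4.91 ± 0.13). Lig1 went from 22.7, 24.2 and 22.5 to 455, 426 and 467 (log2 4.25 ± 0.14). Both enzymes of Okazaki fragment maturation thus ended well clear of their 0 h libraries. Gins1 went from 1.00, 1.02 and 1.59 to 26.9, 25.7 and 23.6 (log2 3.94 ± 0.18). Rfc1, the large clamp loader subunit, went from 79.2, 79.0 and 78.8 to 254, 285 and 260 (log2 1.74 ± 0.08), and neither gene's groups overlapped. Gins2 had log2 5.34 ± 0.21, but 67.3% of its exon bases lie under Gse1 on the opposite strand, and the sources used here do not give whether the counting used strand. Over the same interval summed markers of B cells went to 1.91 to 3.79 CPM, those of myeloid cells to 4.47 to 4.68, those of erythroid cells and platelets to 1.45 to 2.14 and those of NK and gamma-delta T cells to 0.974 to 1.95. Summed T cell markers went to 2033 to 2298 CPM, and CD8 T cell markers went the other way, to 32.8 to 40.6. The part of these in the result was not tested.

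At the other end were ORC subunits and Rpa1. Orc4 was at 47.3, 46.0 and 52.7 CPM at 0 h and 47.6, 56.1 and 51.4 at 24 h, and these libraries overlap (log2 0.09 ± 0.09, limma adjusted p = 0.38). Without TMM scaling 43 members were called higher. Orc3 (0.75 ± 0.08) and Orc5 (0.85 ± 0.15) were higher by less than 1 log2 unit, as was Rpa1 (0.86 ± 0.14), whose libraries of 393, 383 and 403 were nonetheless all above 0 h. The 6 ORC genes therefore ranged from 0.09 to 5.15, a wider spread than the 2.24 to 3.85 of the 6 helicase genes. Polymerase alpha and primase ranged from 2.00 to 3.99, with Pola1 at 191, 214 and 186 CPM from 11.3, 12.8 and 11.8, and the Rfc genes from 1.60 to 3.19.

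**Figure D3:**
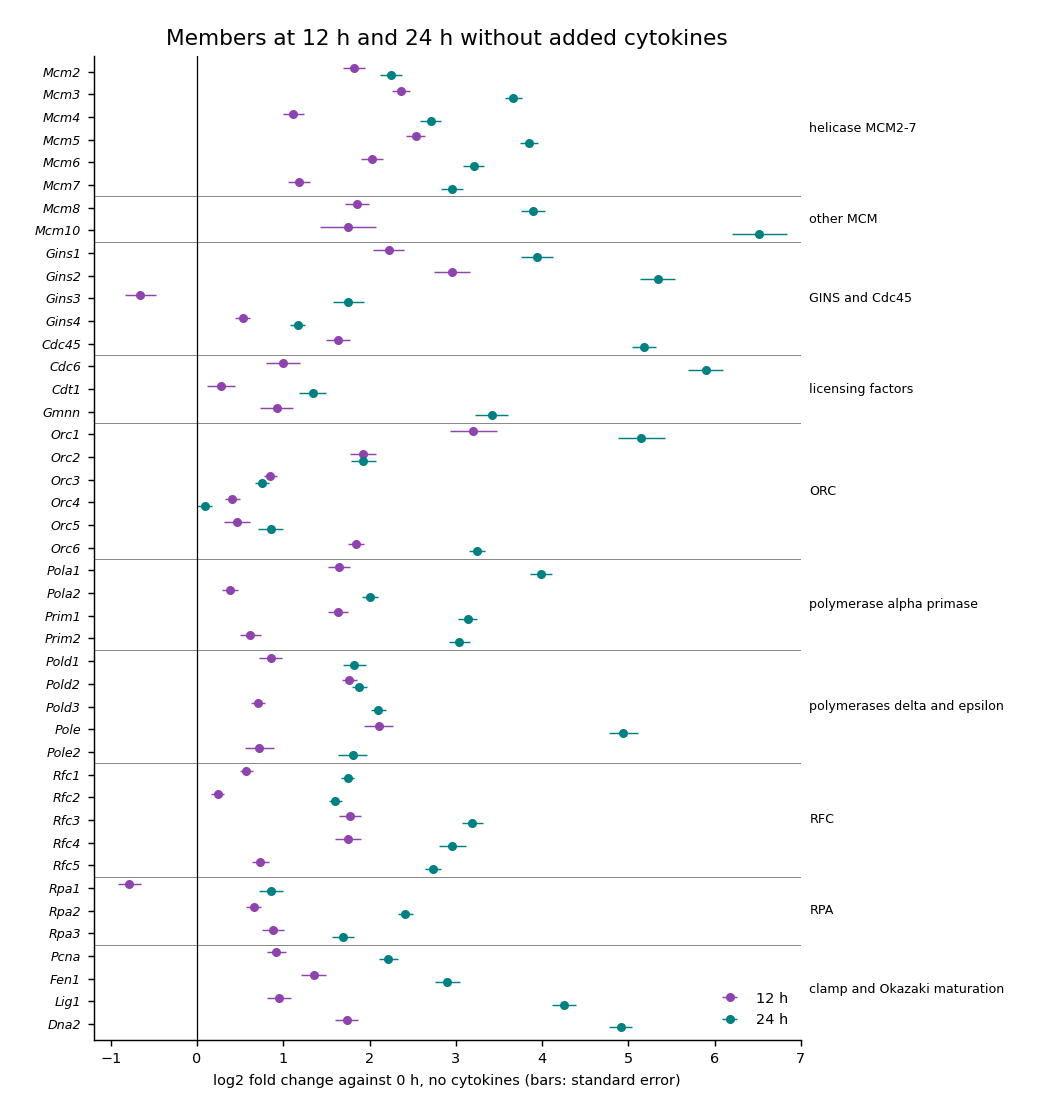
Log2 fold change against 0 h without cytokines at 12 h (purple) and 24 h (teal) for each member, with standard errors, grouped by role. At 24 h all members but Orc4 lie right of 0; Gins3 and Rpa1 are left of 0 at 12 h, and the gap between both times is widest for Cdc6, Mcm10, Cdc45 and Lig1.

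The step from 12 h to 24 h varied both between and within roles, and roles were not tested against each other. Between 12 h and 24 h without cytokines, the median ratio of mean levels was 1.16-fold for ORC genes (range 0.799 to 3.98) and 2.47-fold for Mcm2 to Mcm7 (1.34 to 3.44). The medians were 2.15-fold for polymerases delta and epsilon (1.08 to 7.22), 2.59-fold for Rfc and 3.13-fold for Rpa. They were 4.11-fold for polymerase alpha and primase, 5.40-fold for GINS and Cdc45 (1.56 to 12.1), 5.86-fold for the licensing factors (2.10 to 33.3) and 6.32-fold for the clamp with the Okazaki enzymes (2.47 to 9.95). Mcm8 and Mcm10 had 4.27-fold and 29.1-fold. The ranges of most roles overlap. At 12 h, Cdc6 was at 3.93, 4.09 and 4.46 CPM, 3.01% of its 24 h mean, and Mcm10 at 5.77, 6.07 and 3.59, or 3.43%. In contrast, Orc2 (125, 140 and 114 at 12 h) and Pold2 (145, 152 and 134) had 99.4% and 92.3% of their 24 h means. Over all 43 members the median was 35.1%, with 13 members under 25%, 25 from there up to 75% and 5 at 75% or more. With IL6 and TGFb the ORC median was 1.18-fold and that of the licensing factors 6.36-fold, and the 3 classes held 13, 25 and 5 members. These shares are descriptions without a test.

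Levels between genes were compared per kb of merged exon (GENCODE M21). At 0 h Pcna (40.6 CPM per kb), Rpa1 (38.9) and Mcm4 (28.4) were highest and Mcm10 (0.158) lowest, a 257-fold spread between highest and lowest. At 24 h without cytokines Mcm3 (199), Mcm5 (190) and Pcna (189) led, and the spread was 31.1-fold, with Fen1 (6.40) lowest. For Fen1, 84.2% of exon bases are shared with an antisense transcript, so its reads may have been lost or split in counting. The 6 subunits of the helicase ring, which join in equal numbers, lay within 2.17-fold of each other at 0 h (Mcm5 13.1 to Mcm4 28.4) and within 2.98-fold at 24 h (Mcm2 66.7 to Mcm3 199). Mcm2 has the longest merged exon of these, 6.956 kb, against 3.589 (Mcm4) to 4.666 kb (Mcm6) for the others. A longer merged length lowers the value per kb, and its part in the ratio was not tested.

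The 24 h state was the same count in every cytokine condition: 42 members higher with IL6 and TGFb (37.4% of all genes higher) and with the IL1b, IL21 and IL1b+IL21 cocktails (40.3%, 40.5% and 40.6%), Orc4 being the member not called in each. In the cocktails, grown from other replicates with their own 0 h, Mcm10 went from 0.501, 0.252 and 1.17 CPM to 128, 115 and 120 with the IL1b cocktail, 127, 108 and 117 with the IL21 cocktail and 123, 109 and 132 with both. Cdc6 was at 1.58, 1.10 and 1.48 at 12 h with the IL1b cocktail, overlapping its 0 h libraries (1.43, 1.11 and 1.84), and at 138, 123 and 127 at 24 h.

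IL6 and TGFb against no cytokines addressed whether polarization alters these transcripts, within replicates 1 to 3. Early on, 1 member stood out, Mcm4. At 0.5 h it was 275, 181 and 194 CPM with IL6 and TGFb against 160, 141 and 140 without (log2 0.53 ± 0.12, limma adjusted p = 0.020), the only member called, with 0.606% of all genes called. At 1 h it was 493, 441 and 476 against 194, 187 and 175, which is 2.53-fold (log2 1.34 ± 0.12, adjusted p = 2.8e-11 from limma), again the only member called, with 7.96% of all genes called. At 2 h it was 252, 194 and 162 against 109, 101 and 101 (log2 0.94 ± 0.12). The libraries did not overlap at any of these times, and at 4 h the difference was 0.34 ± 0.12 and not called (adjusted p = 0.13). With cocktails, which also hold IL6 and TGFb, Mcm4 at 1 h was 398, 394 and 325 (IL1b), 383, 428 and 358 (IL21) and 447, 392 and 423 (both), from 92.5, 96.0 and 79.3 at 0 h. Prkdc, the gene of a DNA repair kinase whose start lies 466 bases from that of Mcm4 on the other strand, did not share this (log2 -0.03 ± 0.13 at 1 h).

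At 2 h 7 members were called in all, 4 higher and 3 lower, against 12.4% of all genes. Besides Mcm4, Pole2 was 6.54, 6.85 and 5.96 CPM with IL6 and TGFb against 3.89, 3.38 and 4.06 (log2 0.70 ± 0.17), and Pold2 and Pola2 were each 0.33 ± 0.09 higher. Rpa1 was 44.7, 33.8 and 33.4 against 81.4, 56.8 and 57.7 (log2 -0.79 ± 0.14, limma adjusted p = 2.3e-05). Rfc1 was lower by -0.30 ± 0.08 and Rpa3 by -0.37 ± 0.13; with the replicate block the adjusted p of Rpa3 was 0.051. None of the 7 overlapped between the cultures. Over all members, called or not, 7 were higher and 7 lower without overlap, and 29 overlapped. Of all genes, 15% were lower and 11.2% higher without overlap. At 4, 6 and 12 h limma called 0 members, with 3, 3 and 5 at an unadjusted p under 0.05 and 4.4%, 4.61% and 9.52% of all genes called.

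At 24 h, the peak, 2 members were lower with IL6 and TGFb and 0 higher, with 26.2% of all genes called. This count depended on the fit: only the libraries compared gave 12 changed (2680 genes higher and 2632 lower in all), the replicate block added to that gave 19 (3194 and 3099), and leaving out a replicate gave 0 to 3. Pcna was 361, 330 and 344 CPM against 451, 471 and 435 (log2 -0.39 ± 0.11), and Rpa2 130, 123 and 130 against 150, 152 and 153 (-0.24 ± 0.09). The libraries did not overlap for either. Over all members, called or not, 21 were lower and 4 higher without overlap at 24 h, and 18 overlapped. The share of all genes without overlap is not given here for this time. Summed CD8 T cell markers were 1.98 to 2.64 CPM against 32.8 to 40.6, and T cell markers 1289 to 1368 against 2033 to 2298, and their part in the result was not tested. At 48 h 5 members were higher and 7 lower, below the background of 27.6% and 25.4%. Higher were Orc2 (log2 0.67 ± 0.15), Orc1 (0.66 ± 0.27), Mcm3 (0.46 ± 0.10), Mcm2 (0.44 ± 0.13) and Cdt1 (0.42 ± 0.16). Lower were Rfc4 (-0.53 ± 0.15), Rpa3 (-0.44 ± 0.13), Rpa2 (-0.40 ± 0.09), Lig1 (-0.40 ± 0.14), Rfc2 (-0.37 ± 0.08), Pola1 (-0.34 ± 0.12) and Rfc5 (-0.30 ± 0.10). Orc2 libraries overlapped, at 96.8, 111 and 113 against 99.8, 56.8 and 52.3. Without TMM scaling the 48 h counts were 3 higher and 19 lower, and all genes split 3081 to 5021 with a median of -0.15.

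At 72 h 27 of the 43 members were lower with IL6 and TGFb and 0 higher, where 23.6% of all genes tested were called lower and 22.7% higher; the median was -0.37 (all genes -0.05). Without TMM scaling 29 members were lower, and all genes split 2819 higher to 4483 lower with a median of -0.13. Pole2 changed most, at 20.9, 20.0 and 21.6 CPM against 21.997, 51.0 and 57.05 (log2 -0.93 ± 0.17, limma adjusted p = 1.4e-05). Pole was 133, 141 and 138 against 176, 260 and 281 (-0.77 ± 0.17), and Prim1, the catalytic subunit of primase, 53.0, 55.8 and 60.8 against 74.8, 94.0 and 106 (-0.68 ± 0.11). In these genes the groups do not overlap, but replicate 1 without cytokines lies near the IL6 and TGFb libraries. Dna2 was lower by -0.73 ± 0.13, Gins3 by -0.71 ± 0.18, Pola1 by -0.64 ± 0.12, Rpa2 by -0.62 ± 0.09 and Rfc5 by -0.61 ± 0.10.

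By role, all 5 genes of polymerases delta and epsilon, all 3 Rpa genes, all 4 of the clamp and Okazaki group, 4 of 5 Rfc genes and 3 of 4 polymerase alpha and primase genes were called lower at 72 h. Of the helicase, ORC and licensing genes, 3 of 6 Mcm2 to Mcm7 genes, 2 of 6 ORC genes and 0 of 3 licensing factors (the inhibitor Gmnn among them) were. The remaining calls, Gins3 among them, were in GINS with Cdc45 or in Mcm8 with Mcm10. Roles were not tested against each other here. Libraries did not overlap for 19 members that were lower and 2 that were higher, against 22% and 21.1% of all genes. Replicate 1 without cytokines at 72 h was at or below the highest IL6 and TGFb library in 21 members. Leaving out that 1 library gave 31 members lower, whereas leaving out replicate 2 from all groups gave 15 and replicate 3 gave 11. Calls over all genes moved as well. The main fit had 3467 of 14695 genes lower, and these 3 settings had 4241 of 14646, 1768 of 14339 and 1956 of 14340. The replicate block gave 27 members, with 3573 genes lower. Fitting only the 6 libraries compared gave 8, with 1063 genes lower. Other measures moved with this comparison: at 72 h summed markers with IL6 and TGFb against none were 4.98 to 6.00 against 9.75 to 13.2 CPM for CD8 T cells, 17.4 to 23.5 against 3.25 to 7.69 for NK and gamma-delta T cells, and 1.92 to 2.76 against 3.66 to 7.51 for B cells. All 2, 5 and 6 of these markers were in the table with 0 at 0 CPM throughout both groups, and their part in the result was not tested. Prkdc, the neighbour of Mcm4, was also lower at 72 h (-0.71 ± 0.13).

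**Figure D4:**
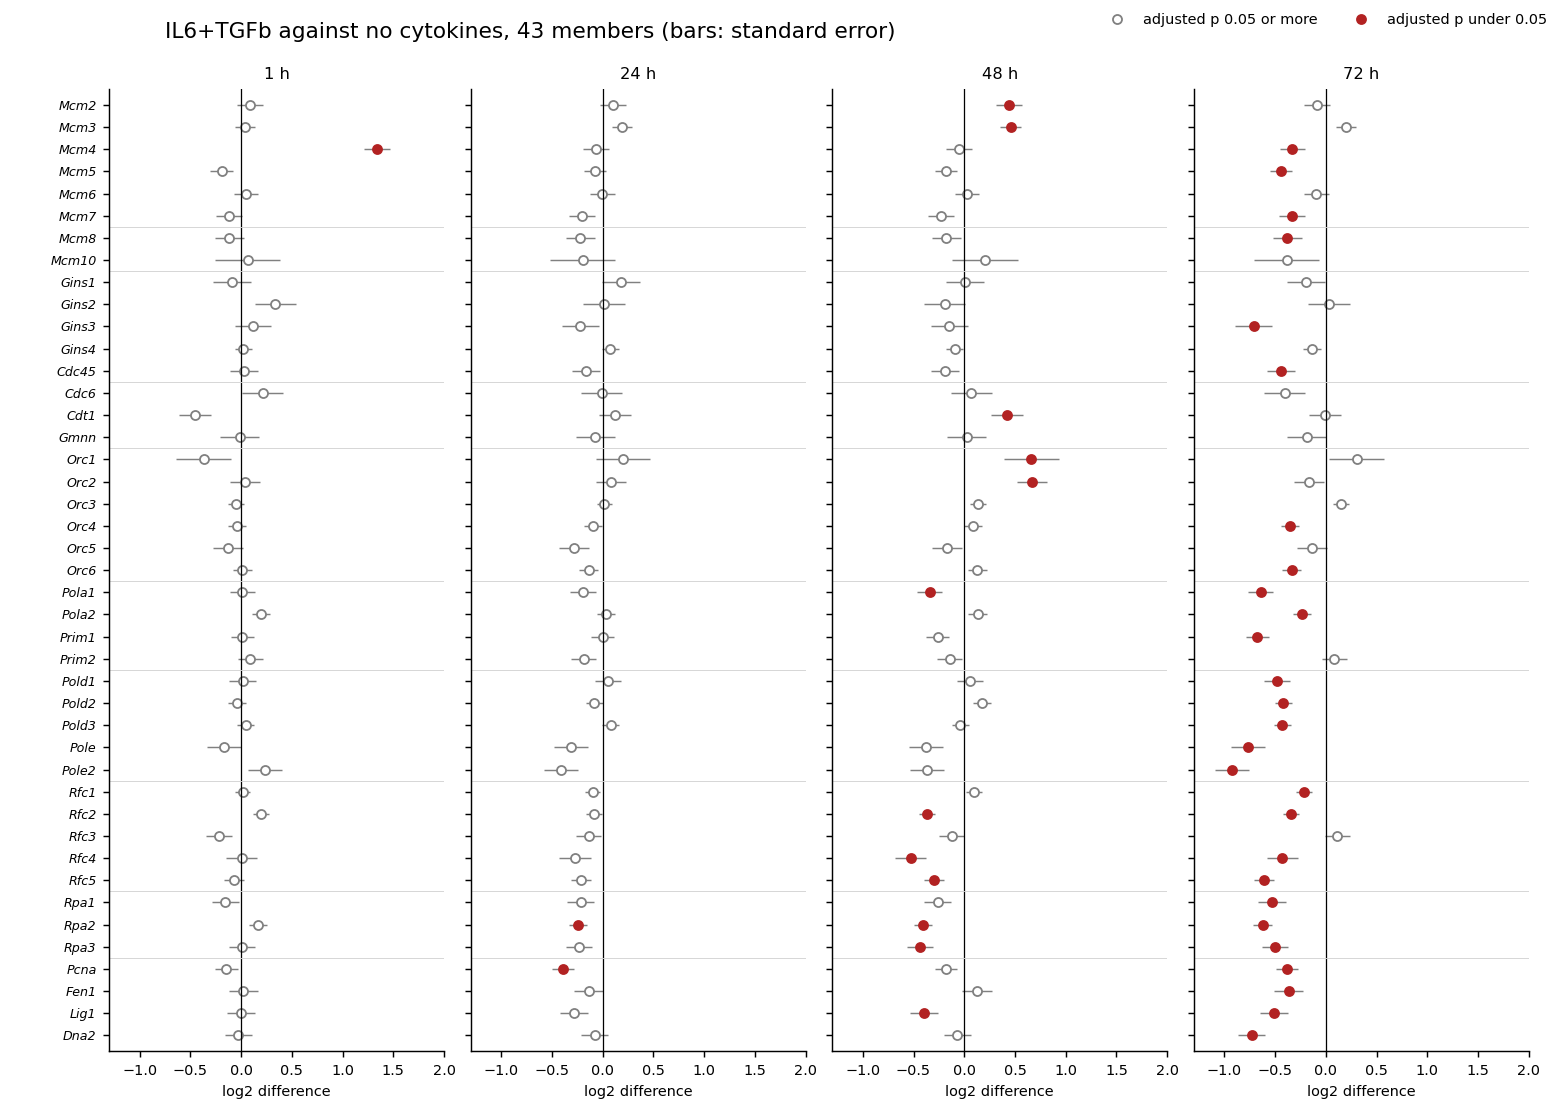
Log2 difference between IL6 and TGFb and no cytokines for each member at 1, 24, 48 and 72 h, with standard errors; filled red points have a limma adjusted p under 0.05. Mcm4 alone is filled at 1 h, Pcna and Rpa2 at 24 h, 12 members on both sides of 0 at 48 h, and 27 members, all left of 0, at 72 h.

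Whether the effect of IL6 and TGFb differed between times was tested with interaction terms. From 24 h to 72 h it moved down in 7 members and up in 0, against 8.91% of all genes moving down. The largest were Prim1 (-0.68 ± 0.16, limma adjusted p = 0.0014) and Dna2 (-0.65 ± 0.19), with Pold1, Pold3, Rfc5, Rpa2 and Pold2 between -0.53 and -0.34. From 48 h to 72 h it moved down in 11 members and up in 0, against 12.8% of all genes. The largest were Orc2 (-0.83 ± 0.21), which shares exon bases with Nif3l1, and Dna2 (-0.66 ± 0.19). Dna2, Prim1, Pold1, Pold2 and Pold3 were in both groups; the intervals share the 72 h libraries. Without replicate 1 of the no-cytokine 72 h group the counts were 18 and 23. All genes moving down were then 2366 and 2666 of 14646, against 1310 and 1874 of 14695 in the main fit. Leaving out replicate 2 from all groups gave 1 member in each interval, with 426 and 324 of 14339 genes. Leaving out replicate 3 gave 2 and 1 members, with 446 and 297 of 14340 genes.

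After 24 h the summed level declined in every culture, and limma called 0 members higher at either step. The highest mean was nonetheless at 48 h for 5, 6 and 9 members in the IL1b, IL21 and IL1b+IL21 cocktails, a description without a test. Without cytokines 26 members were lower at 48 h than at 24 h (21.4% of all genes lower), and Rfc3, Rfc2 and Mcm5 were lower again at 72 h than at 48 h (6.01%). Leaving out a replicate gave 13 to 19 for the first of these steps, only the libraries compared gave 8, and the block added to that gave 0 members and 0 genes in all. For the second step the libraries of all 3 called members overlapped between the groups. Only the libraries compared gave 0 members and 0 genes in all for it, and leaving out a replicate gave 0 to 8 members. With the replicate block the second count was 5. Without TMM scaling it was 11, and all genes split 1048 higher to 1188 lower, against 8.13% and 6.01% with it. With IL6 and TGFb the counts were 18 (9.1%) and then 31 (18.9%), the first step splitting all genes 1847 higher to 1991 lower without TMM scaling. Leaving out a replicate gave 9 to 13 and 18 to 28 for these, and only the libraries compared gave 38 for the first. In the cocktails they were 17 (14.6%) and 35 (22.9%) with IL1b, 15 (14.8%) and 42 (23.1%) with IL21, and 14 (14%) and 39 (22.5%) with both. Whether the step counts differ between cultures was not tested as such, and the cultures without cytokines had the widest spread: the summed level at 72 h was 4771 to 7050 CPM there and 4715 to 4896 with IL6 and TGFb. Orc2 fell most in the first step without cytokines, from 111, 145 and 126 to 99.8, 56.8 and 52.3 (log2 -0.92 ± 0.15), with replicate 1 far above the other two. With the IL1b cocktail the second step was largest in Mcm10 (-0.96 ± 0.21) and Orc2 (-0.83 ± 0.08). At 72 h most members were still above 0 h: 41 without cytokines (33.2% of all genes higher), 40 with IL6 and TGFb (37.7%), and 41, 40 and 41 in the cocktails (43.5%, 42.8% and 43.5%). Orc4 was by then below 0 h with IL6 and TGFb (-0.37 ± 0.09) and with the IL1b (-0.17 ± 0.06), IL21 (-0.29 ± 0.06) and IL1b+IL21 (-0.24 ± 0.06) cocktails.

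A list of 25 genes of mitosis, 24 of which were tested, followed a later course. Its median against 0 h without cytokines was 0.02 at 12 h, when that of the members was 1.12, then 4.42 at 24 h, 5.73 at 48 h and 6.00 at 72 h. From 24 h to 48 h 17 of the 24 mitotic genes were higher without cytokines, 23 with IL6 and TGFb and 24 in each cocktail, while limma called 0 replication members higher. Of all genes 21.3%, 14.5%, 17.4%, 19.6% and 20.1% were higher at this step, in the order no cytokines, IL6 and TGFb, and the IL1b, IL21 and IL1b+IL21 cocktails. At 72 h against 48 h 0 mitotic genes were higher in any culture, and 2 were lower with IL6 and TGFb.

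**Figure D5:**
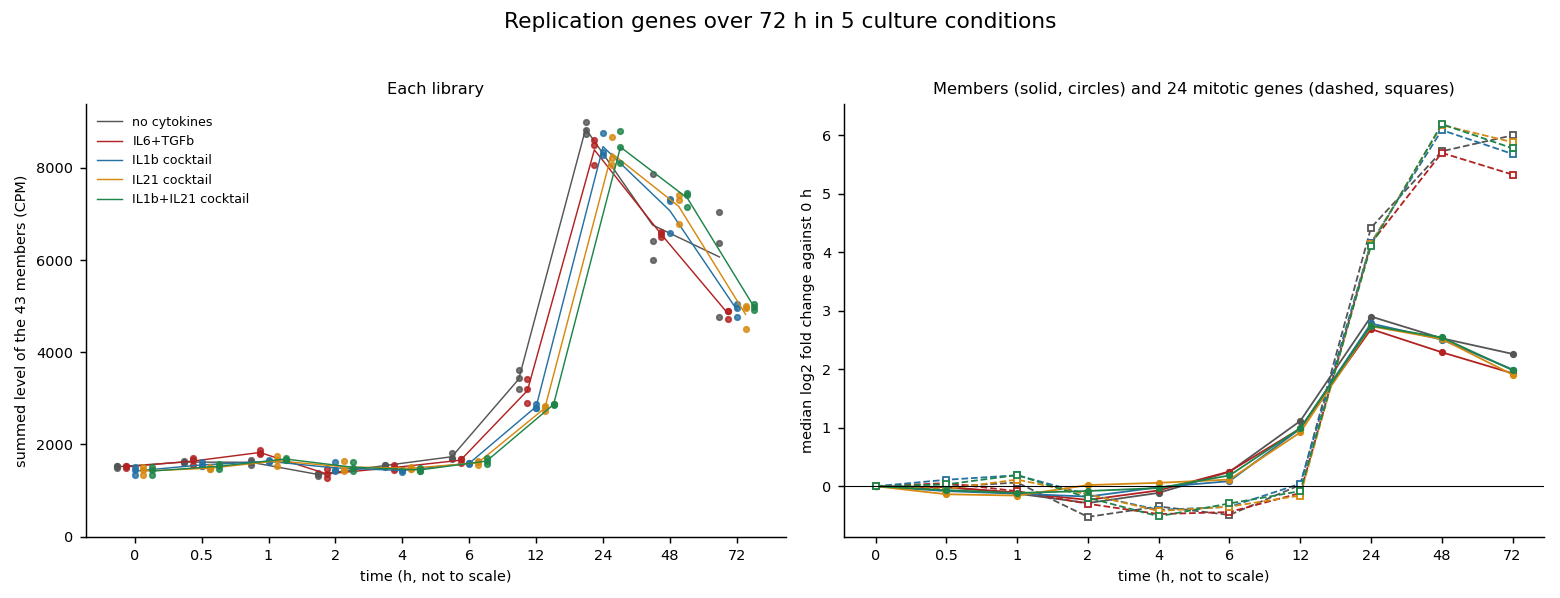
Left, summed level of the 43 members (CPM) in each library over time in 5 cultures, lines joining means; right, median log2 fold change against 0 h of the members (solid) and of 24 mitotic genes (dashed). The summed level peaks at 24 h in all 5 cultures and the libraries without cytokines spread from 4771 to 7050 CPM at 72 h, while the mitotic median is near 0 at 12 h and highest at 48 h or 72 h.

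The 3 cocktails were compared in pairs. Their replicates held no culture with IL6 and TGFb alone. The pairs therefore cannot show what IL1b or IL21 changes when added to IL6 and TGFb. They compare the IL1b cocktail with the IL21 cocktail, and the IL1b+IL21 cocktail with each of these. Over 9 times and 3 pairs, 27 comparisons gave 1161 tests of members, and limma called 0 (0.698% of the tests of all genes), with 47 at an unadjusted p under 0.05. edgeR called 2 and DESeq2 3, and limma with the replicate block called 1. Differences ran from -0.50 to 0.53 on the log2 scale, and the 95% intervals reached from -0.91 to 0.92, both ends from times up to 4 h. The largest was Orc1 at 72 h with IL1b against IL21, at 32.6, 36.8 and 38.4 against 18.6, 28.4 and 28.4 CPM. These libraries did not overlap, and the difference of 0.53 ± 0.19 was not called (limma adjusted p = 0.070). At 24 h, the peak, the intervals of all 3 pairs lay between -0.42 and 0.50. A p that misses the threshold does not show that the cocktails act alike.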

How the data were processed

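The deposited table gave CPM, counts scaled to total reads, per gene symbol for all 141 libraries. Per the submitters' processing notes, the tools were TopHat and HTSeq, and mm9 is named beside the human build GRCh37, with no versions, settings or roles given. The values were whole multiples of 1 read for 100% of entries (tolerance 0.001), so the authors' reads could be recovered: 15952020 to 47068754 per library, with a median of 25403424. All 37 mitochondrial genes had 0 reads.

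CPM were scaled with TMM (edgeR 4.0.16), and limma-trend (3.58.1, R 4.3.3) was fitted to log2(CPM + 0.5), with genes of at least 1 CPM in at least 3 libraries: 14695 genes and 38 residual degrees of freedom for replicates 1 to 3, 14859 and 56 for replicates 4 to 6. All groups of a set entered 1 fit, with Benjamini-Hochberg adjustment over all genes of a comparison. The procedure was tested on simulated data. Alternatives were edgeR's quasi-likelihood test and DESeq2 1.42.0 on the recovered reads, no TMM scaling, pseudocounts of 0.1 and 1, no filter, only the libraries compared, a replicate block, and leaving out replicates. Joining the block with only the libraries compared was chosen after seeing the data.

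The 43 members, the lists (10 roles, other replication genes, mitotic genes, E2F and RB genes, markers of 6 cell types) and the tests were chosen with earlier results of these data known. Any member could be named; the report gives all libraries for those a result turns on, and the called members with the largest changes. Of other replication genes, up to 4 per direction were named. Replicate numbers shared by IL6+TGFb and no-cytokine cultures pair libraries by the correlation of their deviations from group means over genes: it was above 0.1 in all 3 pairs at 0.5, 1, 2, 4 and 12 h, but not at 6, 24, 48 and 72 h. It was also above 0.1 in all 3 pairs for 72 h against 48 h in both cultures, and for all 3 cocktail pairs at 4 and 72 h. The block was left to the alternatives. Exon lengths and overlaps are from GENCODE M21 on GRCm38, promoters from RefSeq on GRCm38.p6; 35 of 43 members matched.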

Additional observations from a re-analysis of the deposited data

Results flagged for a closer look

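The effect of IL6 and TGFb, as the log2 difference from no cytokines, differed between times in 13 members by an interaction term in limma with adjusted p under 0.05, and in each the effect was lower at 72 h. Of all genes, 8.91% moved down from 24 h and 12.8% from 48 h, and 21.6% and 25.7% moved in either direction. Between 24 h and 72 h it moved by -0.68 in Prim1, -0.65 in Dna2, -0.53 in Pold1, -0.51 in Pold3, -0.40 in Rfc5, -0.38 in Rpa2 and -0.34 in Pold2. Between 48 h and 72 h it moved by -0.83 in Orc2, -0.66 in Dna2, -0.60 in Pold2, -0.54 in Pold1, -0.52 in Mcm2, -0.46 in Orc6, -0.45 in Orc4, -0.42 in Prim1, -0.39 in Pold3, -0.37 in Pola2 and -0.31 in Rfc1. All use the no-cytokine 72 h libraries, of which replicate 1 was lowest in 36 of 43 members, and those from 48 h also use the library of replicate 2 that was highest in 35. Without replicate 1 of that 72 h group the effect moved down in 18 members from 24 h and in 23 from 48 h (2366 and 2666 genes in all). Leaving out replicate 1 from all groups gave 9 and 14, replicate 2 gave 1 and 1, and replicate 3 gave 2 and 1. Over all genes these were 2106 and 2666, 426 and 324, and 446 and 297. Only the libraries compared gave 1 from 48 h (166 genes), and the block added to such fits gave 3 and 0 (497 and 73 genes).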

How the results depend on the processing

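Of 116 results for single members, 52 kept their direction and side of the threshold in every alternative and 0 reversed; fits of only the libraries compared ended 44 calls, 50 with the replicate block added, and leaving out replicates 1, 2 and 3 ended 16, 42 and 36. No TMM scaling gave 6 members higher at 1 h without cytokines, 3 higher and 19 lower at 48 h with IL6 and TGFb against none, 11 lower for the change of that effect from 24 h to 72 h, and 11 lower at 72 h against 48 h without cytokines. No filter gave 1 member changed at 24 h and 4 lower at 48 h with IL6 and TGFb against none, and 3 for 24 h to 72 h. DESeq2 gave 11 lower at 48 h. For 72 h against 48 h without cytokines, pseudocount 1, edgeR and the replicate block gave 5 each and DESeq2 gave 9. Without the no-cytokine 72 h replicate 1 the 2 changes of effect had 18 and 23, and the 72 h comparison had 31 lower. Over all 14646 genes tested then, 2366, 2666 and 4241 were lower in these.

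Only the libraries compared gave, for IL6 and TGFb against none, 3 changed at 2 h, 12 at 24 h, 2 higher and 4 lower at 48 h and 8 lower at 72 h; 1 for the change of effect from 48 h; 8 and 0 for the late steps without cytokines; and 38 for 24 h to 48 h with IL6 and TGFb. Adding the replicate block to these fits gave 19 at 24 h, 0 higher and 1 lower at 48 h, 2 lower at 72 h, 3 and 0 for the changes of effect, 0 and 0 for the late steps without cytokines, and 37 with IL6 and TGFb. Such fits have few residual degrees of freedom. The replicate block in the full fit changed 1 single-member call (Rpa3 at 2 h).

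Leaving out 1 replicate gave 6 to 9 members higher and 12 to 19 lower at 1 h. For IL6 and TGFb against none it gave 2 to 7 changed at 2 h, 0 to 3 at 24 h, 1 to 8 higher and 2 to 10 lower at 48 h, and 11 to 27 lower at 72 h; for the changes of effect 1 to 9 and 1 to 14; for the late steps 13 to 19 and 0 to 8 without cytokines and 9 to 13 and 18 to 28 with IL6 and TGFb. Member calls over the 27 cocktail comparisons were 1 with pseudocount 0.1, 3 with pseudocount 1, 1 with the replicate block, 8 with block and only the libraries compared, 2 with edgeR, 3 with DESeq2 and 0 to 1 leaving out a replicate. Other counts stayed within 1.5 times. Calls over all genes moved too. Lower calls at 72 h with IL6 and TGFb against none ran from 1768 to 3807 genes when a replicate was left out. For each difference the cause was not tested. Mcm10, Orc1, Cdc6 and Gins2 lay near 1 CPM at 0 h, where few reads limit their folds.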

Other observations

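Genes that work beside the machinery, a list of 40 other replication genes of histone assembly, checkpoint and firing control, also rose. At 24 h without cytokines 37 were higher and 1 lower than at 0 h, against 35.9% and 36.8% of all genes, with a median log2 change of 1.92 (all genes -0.03). The largest were Chaf1a, a histone chaperone of newly made DNA (6.08 ± 0.24), Uhrf1, which maintains DNA methylation (5.95 ± 0.28), Ticrr, a factor for origin firing (5.29 ± 0.26), and the remodeller Hells (5.15 ± 0.16). Pold4, the small subunit of polymerase delta, was the exception at -0.64 ± 0.12. At 72 h 25 of the 40 were lower and 3 higher with IL6 and TGFb against no cytokines (23.6% and 22.7% of all genes), with Fam111a at -1.67 ± 0.23 and Cdc7, the kinase that activates the helicase, at -1.17 ± 0.17. Pold4 was again opposite, at 1.44 ± 0.12.

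The E2F and RB genes named here were chosen after their values were seen. Of the 13 on the list, 10 were higher and 1 lower at 24 h without cytokines (median 1.12). E2f1 was 4.18 ± 0.16 higher, and E2f7 and E2f8, which act as repressors, were 4.76 ± 0.25 and 5.57 ± 0.40 higher. Rbl2, a pocket protein of resting cells, was lower by -0.94 ± 0.16. At 12 h, when 40 replication members were already higher, E2f2 was -3.64 ± 0.33 and Rbl2 -1.88 ± 0.16, while E2f3 was 2.77 ± 0.12 and Tfdp1 2.51 ± 0.12. At 72 h 4 of the 13 were lower and 1 higher with IL6 and TGFb against none, where 23.6% and 22.7% of all genes were. Of the mitotic genes, 9 of 24 were lower and 0 higher there, with a median of -0.53.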
